A study of Mus musculus with 6 samples.

Results

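Rab proteins are small GTPases that give each membrane compartment of a cell its identity. In the GTP-bound state a Rab sits on a membrane through its lipid-modified tail and recruits effectors that move, tether or fuse vesicles. Exchange factors load it with GTP, GTPase-activating proteins switch it off, and GDP dissociation inhibitors carry it through the cytosol. In neurons Rabs route membrane to growing axons, recycle receptors and govern the supply and release of synaptic vesicles. The Rab genes were taken from the expression table by gene symbol alone, as "Rab" followed by a number and at most 1 letter from a to d. This gave 46 genes of the 10361 gene names in the table. All 46 were expressed highly enough to be tested (mean FPKM of 1 or more). FPKM is the number of fragments normalised for transcript length and for the mapped reads of the library. A further 14 Rab symbols on a list of 60 (Rab7b, Rab17, Rab19, Rab20, Rab25, Rab26, Rab27a, Rab29, Rab32, Rab37, Rab38, Rab41, Rab43 and Rab44) have no entry and were not analysed here.

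The libraries come from retinal ganglion cells (RGCs), the output neurons of the retina, of wild-type C57/6NCrl mice, with 2 libraries in each of 3 groups. In the adult control group the RGCs were transduced with AAV2, an adeno-associated virus, expressing mCherry and a scrambled shRNA mimic. The adult miR-1247 group received AAV2 with a mimic of miR-1247-5p, and the third group is untreated RGCs of embryonic day 18 (E18). The exact age of the adults is not given. Each adult condition pooled 10 retinas and about 5000 cells, which were purified on Thy1 antibody and then sorted for mCherry. The approximately 50000 E18 cells were purified on Thy1 antibody without sorting, so age, vector and sorting cannot be told apart in any comparison with E18. The labels do not say that the libraries of a group came from separate animals, so each p-value is set against a spread between libraries that may be purely technical.

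Totals of the listed FPKM ran from 339224 to 392238 per library, and no read counts are given, so the depth is unknown. All 8 RGC markers had entries. Their summed level was 2577 to 2628 FPKM in adult control, 1622 to 1664 FPKM in adult miR-1247 and 3273 to 3275 FPKM in E18 libraries. The sum hides members that differ. By the test used below, 6 were higher and 2 lower in E18 than in control, where 40.2% of all genes were higher and 29.8% lower. Of 56 markers of other retinal cells 14 had entries. No cone, microglia, endothelial or progenitor marker was among them, nor were Gnat1 of rods, Grm6 of bipolar cells, Rlbp1 and Aqp4 of Müller glia or Gad1 and Chat of amacrine cells. The filter behind the entries is not known, so a missing entry does not show that a gene was not expressed. The summed amacrine markers (Gad2, Slc6a9 and Npy) lay at 130 to 152 FPKM in control, 173 to 205 FPKM in miR-1247 and 1.13 to 3.41 FPKM in E18 libraries. The 4 Müller glia and astrocyte markers summed to 1063 to 1408, 1711 to 1824 and 123 to 126 FPKM in the same order. The 3 rod markers summed to 45.6 to 46.8, 24.3 to 26.9 and 5.57 to 6.41 FPKM, with Sag listed at 0 in both miR-1247 libraries. The 3 bipolar markers summed to 25.1 to 30.0, 40.4 to 40.9 and 11.3 to 12.7 FPKM, and Mbp of oligodendrocytes lay at 24.2 to 24.9, 35.6 to 41.5 and 9.15 to 11.5 FPKM. The part of these shifts in the Rab results below was not tested. In bulk samples fewer cells of a type and less RNA per cell cannot be told apart.

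The treated RGCs carried the microRNA printed here, whose seed (bases 2 to 8, in capitals) pairs with target transcripts. The sequence is that of RefSeq (chromosome 12, 110278094 to 110278115, minus strand, in GRCm38.p6).
mmu-miR-1247-5p: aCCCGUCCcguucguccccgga
Matches to this seed were searched for on the transcript strand of the longest annotated 3′ UTR of each gene (GENCODE vM39, GRCm39, the same assembly as mm39). The longest match, GGACGGGA, pairs with bases 2 to 8 and has an A opposite base 1. The others were GGACGGG (bases 2 to 8), GACGGGA (bases 2 to 7 and the A) and GACGGG (bases 2 to 7), each counted only where no longer match covers it. Of the 46 Rab genes 8 held a match (17.4%), against 1134 of 9838 tested gene names with a 3′ UTR (11.5%). The Rab 3′ UTRs were longer, with a median of 2541 bases against 2073. A match of at least 7 letters was found in 5 Rab genes (10.9%) and in 631 of all (6.41%). The 8 windows are shown with the match in capitals, 5′ to 3′ on the transcript strand, since they are the seed matches of the mimic in Rab messages.
Rab3d, chr9:21819309-21819332, minus strand: gccgagagGGACGGGAgcctgatg
Rab2a, chr4:8607293-8607315, plus strand: aatgagtgGGACGGGcagaaaca
Rab8b, chr9:66753655-66753677, minus strand: tgcactggGGACGGGgagggtgt
Rab21, chr10:115125195-115125217, minus strand: taagatgaGACGGGAcggtccct
Rab30, chr7:92486717-92486739, plus strand: gaggatatGACGGGAaattccgc
Rab10, chr12:3299801-3299822, minus strand: ggaggcgtGACGGGctggaaga
Rab22a, chr2:173543541-173543562, plus strand: tctaaactGACGGGcagtggct
Rab33b, chr3:51402644-51402665, plus strand: gcggtagtGACGGGtggctgca
These matches are letters in an annotation and not shown sites of binding.

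Rab genes spanned a wide range of levels. Rab3a, the Rab of synaptic vesicles (chromosome 8, 71207327 to 71213592 in mm39), was the most abundant by its mean over the 6 libraries. It held 18.9% and 19.3% of all Rab FPKM in the control libraries, 19.6% and 19.3% in the miR-1247 libraries and 8.89% and 7.15% in the E18 libraries. Rab6b and Rab6a, which act in transport through and back to the Golgi, and Rab7, the Rab of late endosomes and lysosomes, followed. Rab11a of recycling endosomes was next by this mean, a rank that rests on 1 E18 library at 750.4 FPKM. In the other 5 libraries it was at 58.9 to 133 FPKM. At the lower end Rab13, a Rab of tight junctions and neurite outgrowth, was at 0.412 to 2.45 FPKM over the 6 libraries. The loci of Rab3a (with Mpv17l2), Rab10 (with Rab10os), Rab15 (with Churc1 and Fntb), Rab24 (with Prelid1), Rab2b (with Mettl3 and Tox4) and Rab40c (with Pigq) have the same coordinates as entries for those genes, so reads may have been divided between them. The Rab genes together summed to 3142 and 3173 FPKM in control, 2953 and 2921 FPKM in miR-1247, and 2759 and 3372 FPKM in E18 libraries. The gap between the E18 libraries came from Rab11a, and without that gene they summed to 2625 and 2621 FPKM.

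**Figure D1:**
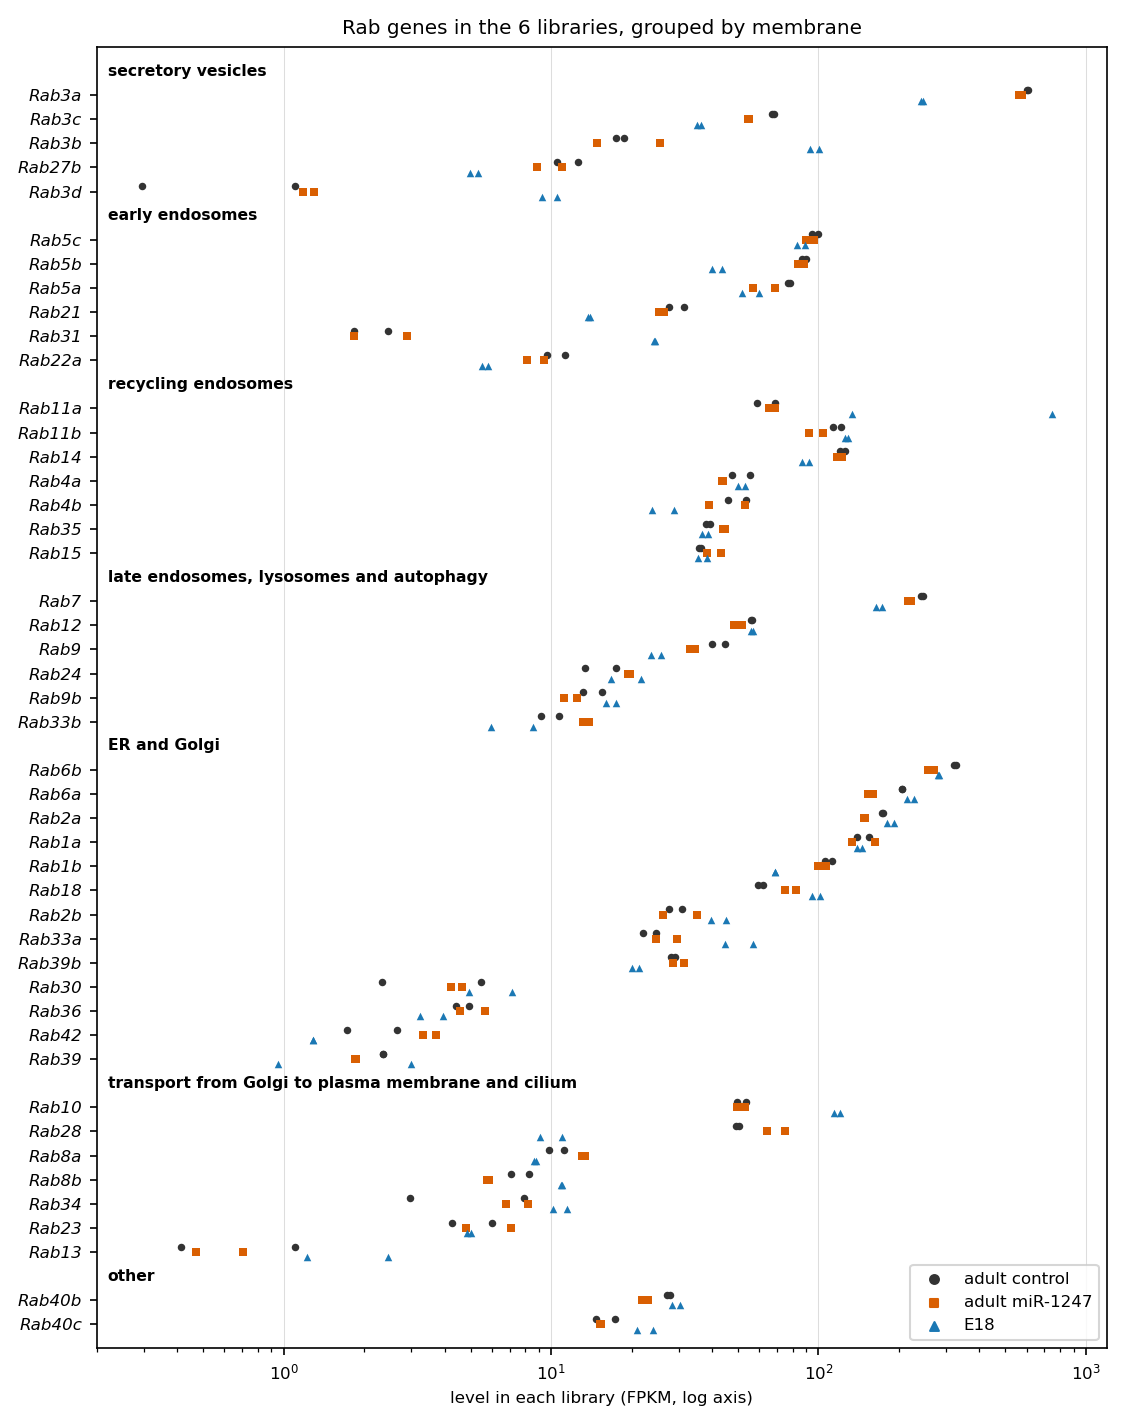
Level of each of the 46 Rab genes in every library, in FPKM on a log axis, with 1 point per library and genes grouped by the membrane they serve. Rab3a tops the plot at 563 to 608 FPKM in adult libraries and 241 to 245 FPKM in E18, and the E18 points of Rab11a lie far apart (133 and 750.4 FPKM).

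E18 libraries were first compared with adult control libraries, which differ from them in age, vector and sorting. Rab genes differed in both directions. Rab31, Rab3d, Rab3b, Rab11a, Rab10 and Rab33a were the most strongly raised in E18, and Rab28, Rab3a, Rab5b, Rab21, Rab27b and Rab3c the most strongly lowered. Of 46 Rab genes 11 rose and 15 fell (limma, Benjamini-Hochberg adjusted p under 0.05). Each log2 fold change compares group means of log2(FPKM + 1) and is followed by its standard error. The corresponding shares of all 9987 tested genes were 40.2% called higher and 29.8% called lower. Called either way were 26 Rab genes (56.5%), where 70.1% of all genes were, and 11 Rab genes changed at least 2-fold, where 34.7% of all genes did. The median size of the log2 fold change, sign disregarded, was 0.47 for Rab genes and 0.72 for all genes. The median Rab gene was at −0.03 and the median of all genes at 0.16. With median ratio scaling, which moved the latter to 0.02, 7 Rab genes were higher and 18 lower, where 3400 of 9980 genes were higher and 3427 lower. Without control library 2 the count of higher genes was 7 as well.

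Among the Rabs of secretory vesicles all 5 changed, 2 up and 3 down, where 70.1% of all genes were called (40.2% higher and 29.8% lower). With so few genes per membrane, the counts here and below describe these genes only. Rab3a was at 608 and 601 FPKM in the control libraries, 577 and 563 FPKM in the miR-1247 libraries and 245 and 241 FPKM in the E18 libraries. It was thus lower in both E18 libraries than in any adult one, and fell 2.49-fold against control (log2 fold change −1.31 ± 0.0363, adjusted p = 5.43e-07). Rab3c, a paralog that also resides on synaptic vesicles, was at 67.0 and 68.4 FPKM in control and 35.1 and 36.5 FPKM in E18 libraries (−0.90 ± 0.0637, adjusted p = 2.87e-05). Rab3b (chromosome 4, 108736250 to 108829274) went the other way. It stood at 17.5 and 18.8 FPKM in control, 25.6 and 14.8 FPKM in miR-1247 and 101 and 93.1 FPKM in E18 libraries, which is 5.34-fold higher in E18 than in control (2.35 ± 0.223, adjusted p = 0.000114). Rab3d, best known from secretory granules of non-neuronal cells, was near the lower end of the table in the adult (0.295 and 1.11 FPKM in control, 1.18 and 1.30 FPKM in miR-1247) and at 10.5 and 9.29 FPKM in E18 (2.72 ± 0.263, adjusted p = 0.000125). Rab27b, which docks secretory vesicles, was at 10.6 and 12.7 FPKM in control, 11.0 and 8.88 FPKM in miR-1247 and 5.00 and 5.35 FPKM in E18 libraries (−1.03 ± 0.159, adjusted p = 0.0012). In E18 all libraries of Rab3a, Rab3c and Rab27b lay below, and all of Rab3b and Rab3d above, the adult ones. How often groups lie apart over all genes was not computed, so such separation is only described, here and below. Rab2a, Rab6a, Rab8a and Rab11b also had no overlap between E18 and control and did not pass. The summed level of the 5 genes was 702 ± 1.02 FPKM in control, 656 ± 19.2 FPKM in miR-1247 and 391 ± 8.07 FPKM in E18 (SD, n = 2 in each group, here and below).

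Of 6 Rabs of early endosomes Rab5b, Rab21, Rab22a and Rab5a fell in E18, Rab31 rose and Rab5c did not pass (83.3% called, against 70.1% of all genes). Rab5b, an organiser of early endosomes, was at 87.0 and 89.8 FPKM in control, 84.0 and 88.5 FPKM in miR-1247 and 40.1 and 43.5 FPKM in E18 libraries, with no overlap between E18 and adult (−1.06 ± 0.0681, adjusted p = 1.84e-05). Rab21, which takes part in integrin uptake, was at 27.6 and 31.4 FPKM in control, 26.5 and 25.3 FPKM in miR-1247 and 13.7 and 13.9 FPKM in E18 (−1.04 ± 0.0985, adjusted p = 0.000116). The fall of Rab22a was 1.84-fold (adjusted p = 0.00284). Rab5a fell from 77.3 ± 0.866 to 55.8 ± 5.90 FPKM (adjusted p = 0.00829, and 0.0632 without E18 library 1). Its locus entry is shared with Kat2b, so the value is that of both genes. Rab5c was at 97.1 ± 4.08 and 86.2 ± 3.85 FPKM and did not pass (adjusted p = 0.0578). It was called lower under all 4 other scalings (median ratio scaling −0.33, adjusted p = 0.00457). Rab31, a Rab of early endosomes and the trans-Golgi network (chromosome 17, 65958723 to 66079747), was at 1.84 and 2.46 FPKM in control, 2.88 and 1.84 FPKM in miR-1247 and 24.5 and 24.3 FPKM in E18. This was the highest log2 fold change of any Rab gene (3.02 ± 0.203, adjusted p = 2.28e-05). The 6 genes together were at 305 ± 1.27 FPKM in control and 228 ± 4.65 FPKM in E18.

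Among 7 Rabs of recycling endosomes Rab4b and Rab14 fell and Rab11a rose (42.9% called, against 70.1% of all genes). Rab11a, the central Rab of slow recycling, was at 58.9 and 69.1 FPKM in control, 68.6 and 65.3 FPKM in miR-1247 and 133 and 750.4 FPKM in E18. Both E18 values exceed all adult values, but they differ from each other by more than the lower one differs from the adult, and the size of the rise rests on E18 library 2. The log2 fold change was 2.29 ± 0.690 (adjusted p = 0.0221) with both 1.05 ± 0.113 (adjusted p = 0.00195) without that library and 3.54 (adjusted p = 7.38e-05) without E18 library 1. The call was lost without control library 1 or 2 (adjusted p = 0.0907 and 0.0697). The deposited Rab11a locus (chromosome 9, 64292907 to 64645040) has the same coordinates as an entry for Megf11. Rab4b, of fast recycling, fell from 49.9 ± 5.50 to 26.3 ± 3.64 FPKM (adjusted p = 0.00299) and Rab14 from 123 ± 4.41 to 89.5 ± 3.83 FPKM (adjusted p = 0.000555). Rab11b (117 ± 5.70 and 127 ± 2.11 FPKM), Rab4a (51.4 ± 5.63 and 51.7 ± 2.14 FPKM), Rab15 (35.8 and 36.5 against 35.5 and 38.3 FPKM) and Rab35 (38.6 ± 0.897 and 37.7 ± 1.44 FPKM) did not pass.

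Of 6 Rabs of late endosomes, lysosomes and autophagy 2 fell and none rose (33.3% called, against 70.1% of all genes). Rab7 was at 246 and 242 FPKM in control, 221 and 216 FPKM in miR-1247 and 163 and 173 FPKM in E18 libraries, each group apart from the others (−0.53 ± 0.0484 for E18 against control, adjusted p = 9.53e-05). Rab9, which returns cargo from late endosomes to the Golgi, fell 1.72-fold (adjusted p = 0.000362). Rab12, Rab24, Rab9b and Rab33b, with log2 fold changes from −0.42 to 0.30, did not pass. Rab33b was called lower under 3 of the 4 other scalings and without E18 library 1 (lowest adjusted p = 0.0255). Rab33b is divided over a pair of loci at the same coordinates, of which one was at 1.22 to 3.73 FPKM and the other at 3.28 to 11.3 FPKM over the 6 libraries. Their sum was 9.17 and 10.7 FPKM in control, 13.1 and 13.9 FPKM in miR-1247 and 8.53 and 5.95 FPKM in E18.

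Of 13 Rabs of the endoplasmic reticulum (ER) and the Golgi, 3 rose, 3 fell and 7 did not pass (46.2% called, against 70.1% of all genes). The summed level of these genes was close between groups, at 1113 ± 8.39 FPKM in control and 1126 ± 11.5 FPKM in E18. Rab33a, a Golgi Rab of neurons linked to vesicle transport in growing axons, was at 22.0 and 24.6 FPKM in control, 24.7 and 29.7 FPKM in miR-1247 and 57.1 and 44.8 FPKM in E18 libraries (1.09 ± 0.144, adjusted p = 0.000564). Rab18, of the ER and lipid droplets, rose 1.61-fold (adjusted p = 0.000177) and Rab2b 1.45-fold (adjusted p = 0.0181). Rab2b lost its call with median ratio scaling and without control library 2 or E18 library 2 (highest adjusted p = 0.120). Rab1b, which acts between ER and Golgi, fell from 109 ± 4.77 to 69.0 ± 0.0782 FPKM (adjusted p = 0.000116). Its paralog Rab1a was at 147 ± 10.8 and 142 ± 4.91 FPKM and did not pass (adjusted p = 0.716). Rab39b fell from 28.5 ± 0.690 to 20.8 ± 0.871 FPKM (adjusted p = 0.00459). Rab6b, a Golgi Rab enriched in neurons, was at 326 and 322 FPKM in control and 281 and 283 FPKM in E18 libraries, a small fall (−0.20 ± 0.0428, adjusted p = 0.0053). That call was lost with no variance trend (adjusted p = 0.0785). Another Rab6b locus is listed at 0 in all 6 libraries. Rab6a, at 205 and 205 FPKM in control and 215 and 228 FPKM in E18, did not pass (adjusted p = 0.0902), and neither did Rab2a (174 ± 1.23 and 186 ± 7.28 FPKM, adjusted p = 0.103). The other members that did not pass were low, with Rab30, Rab36, Rab39 and Rab42 at 0.956 to 7.14 FPKM over the 6 libraries, and each gained a call under 1 to 3 alternatives. Rab42 was lower with quantile normalization, with no variance trend and without control library 1 (lowest adjusted p = 0.0290). Rab36 was lower with quantile normalization (adjusted p = 0.0482), Rab39 lower without E18 library 1 (adjusted p = 0.0183) and Rab30 higher without control library 1 (adjusted p = 0.0153).

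Among 7 Rabs of transport from the Golgi to the plasma membrane and the cilium, Rab10, Rab34 and Rab8b rose and Rab28 fell (57.1% called, against 70.1% of all genes). Rab10 (chromosome 12, 3285441 to 3360976), which delivers membrane to growing axons and dendrites, was at 49.5 and 53.8 FPKM in control, 53.4 and 49.5 FPKM in miR-1247 and 120.0 and 115 FPKM in E18 libraries (1.17 ± 0.0734, adjusted p = 1.67e-05). The adult groups overlapped and both E18 libraries were more than 2-fold above them. Rab28 (chromosome 5, 41782318 to 41865522), a ciliary Rab whose loss causes photoreceptor degeneration, was at 50.7 and 49.1 FPKM in control, 64.3 and 75.3 FPKM in miR-1247 and 11.0 and 9.12 FPKM in E18. It had the lowest log2 fold change of the family (−2.21 ± 0.117, adjusted p = 8.24e-06). The rod genes Rom1 and Reep6 fell in the same comparison, and their part in the Rab28 value was not tested. In the miR-1247 libraries the summed rod markers were below control, and those of amacrine cells, bipolar cells and glia were above it. Few single markers passed the test in that comparison. Called higher were 0 of 3 amacrine, 0 of 3 bipolar and 1 of 4 Müller glia and astrocyte markers and Mbp, and 1 of 2 tested rod markers was lower. Over all genes 3.53% were higher and 6.22% lower. Rab28 was at its highest in the miR-1247 libraries, and the part of these cells in its value was not tested. Rab8b rose from 7.70 ± 0.850 to 10.9 ± 0.0634 FPKM (adjusted p = 0.0199), a call that was lost under 6 of 17 alternative settings. Rab34, needed for cilium formation, was at 2.96 and 7.93 FPKM in control and 11.5 and 10.2 FPKM in E18 (adjusted p = 0.0422), and it kept its call under only 4 of 17 alternatives. Rab8a, Rab13 and Rab23, a Rab that acts in hedgehog signalling, did not pass. Rab8a was called lower under 3 of the 4 other scalings (lowest adjusted p = 0.0281) and Rab13 higher without E18 library 1 (adjusted p = 0.0417). Of the pair that carries a SOCS box and joins ubiquitin ligases, Rab40c rose from 16.0 ± 1.84 to 22.5 ± 2.25 FPKM (adjusted p = 0.0128, and up to 0.0832 under 3 alternatives). Rab40b, on a locus entry shared with Wdr45b, was at 27.5 ± 0.376 and 29.4 ± 1.42 FPKM and did not pass.

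**Figure D2:**
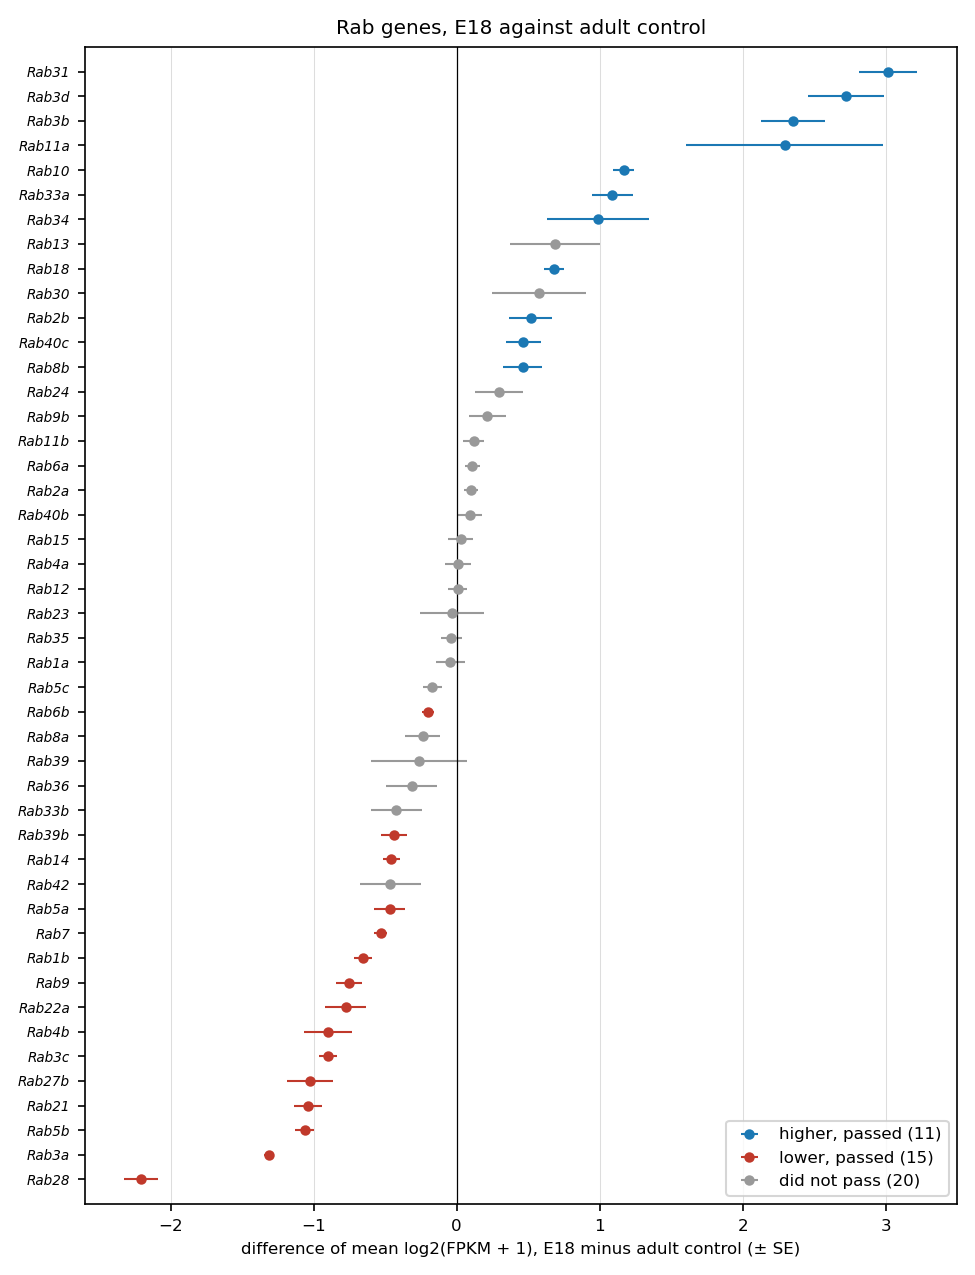
Difference of mean log2(FPKM + 1) between E18 and adult control for each of the 46 Rab genes, with its standard error, sorted by size. Blue genes were called higher (11), red genes lower (15) and grey genes (20) did not pass. Rab31 is at the top (3.02) and Rab28 at the bottom (−2.21).

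The use of paralogs within subfamilies was compared as the share of the subfamily's summed FPKM. Such a share does not change when a library is scaled by a single factor, but it can change with quantile normalization. These shares carry no test, since an exact permutation of 2 against 2 libraries cannot go below p = 0.333. Rab3a made up 87.2% and 87.8% of Rab3 FPKM in control, 87.6% and 88.8% in miR-1247 and 62.6% and 63.4% in E18 libraries. Rab3b took 2.53% and 2.73% in control against 25.7% and 24.5% in E18. The share of Rab3c hardly moved (9.68% and 9.93% in control, 8.97% and 9.60% in E18), as its level fell with the subfamily's sum from 690.6 to 385.7 FPKM. In the Rab5 subfamily the share of Rab5b was 32.8% and 34.4% in control and 22.2% and 23.3% in E18, and Rab5c had the highest share in all 6 libraries. The Rab5 sum includes the Rab5a entry, which is shared with Kat2b, so these shares are not of Rab5 genes alone. Rab1a held 56.9% and 57.9% of Rab1 FPKM in control and 66.8% and 67.9% in E18. Rab33a held 70.6% and 69.7% in control and 87.0% and 88.3% in E18. In the Rab8 subfamily, whose sum was similar in the groups (18.2, 19.1 and 19.7 FPKM), Rab8a had the larger share in all adult libraries and Rab8b in both E18 libraries. Rab8a held 57.4% and 58.1% in control, 69.9% and 68.9% in miR-1247 and 44.0% and 44.7% in E18. In the Rab6 pair Rab6b held 61.4% and 61.1% in control, 63.8% and 61.7% in miR-1247 and 56.7% and 55.4% in E18.

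**Figure D3:**
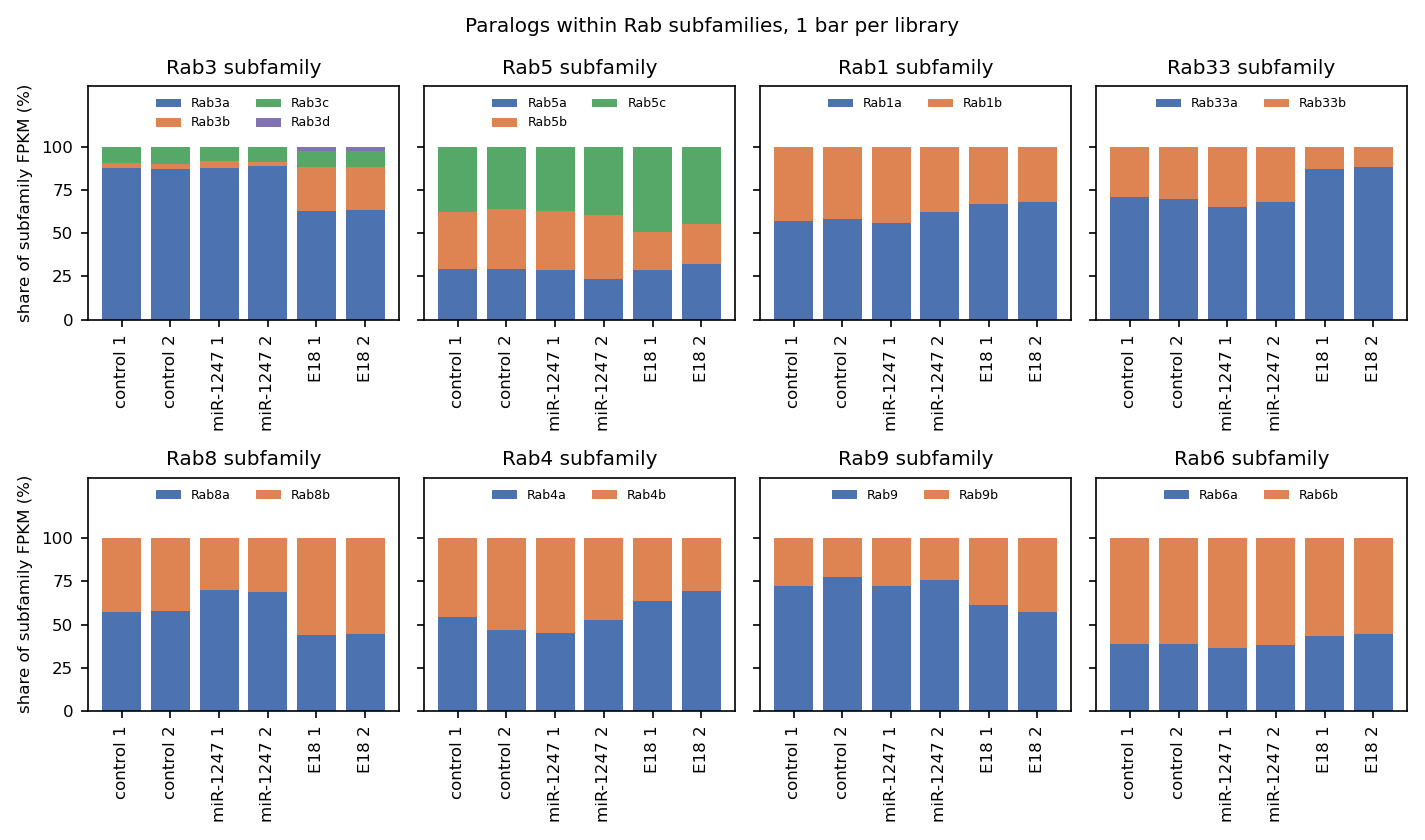
Share of each paralog in the summed FPKM of its Rab subfamily, in percent, with 1 stacked bar per library and 1 panel each for the Rab3, Rab5, Rab1, Rab33, Rab8, Rab4, Rab9 and Rab6 subfamilies. In the Rab3 panel Rab3b grows from under 4% in the adult bars to 24.5% and 25.7% in the E18 bars, and in the Rab8 panel the larger share passes from Rab8a to Rab8b. In the Rab5 panel the Rab5a entry is shared with Kat2b.

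Adult RGCs with the mimic were compared with their mCherry controls to see which Rab genes differed with miR-1247-5p. Few did. Rab6a, Rab6b, Rab3c and Rab2a were lower and Rab18 was higher, each by less than 2-fold. These 5 are 10.9% of the 46 Rab genes, and 9.75% of all genes were called. Called higher were 3.53% of all genes and called lower 6.22%. No Rab gene was called at 2-fold or more, where 1.2% of all genes were. At an unadjusted p under 0.05 there were 5 higher and 12 lower Rab genes, where 11.9% of all genes were higher and 16.7% lower at that p. The median Rab gene was at −0.05 and the median of all genes at −0.03. None of the 5 calls held without every library in turn. Without control library 1 or 2, or without miR-1247 library 1 or 2, limma called no Rab gene (10 to 14 at an unadjusted p under 0.05), and without E18 library 1 or 2, which enter through the shared spread, only Rab6a was. The limma test without a variance trend called 0 as well (11 at an unadjusted p under 0.05). All 8 RGC markers fell in the same comparison (7 with 3 of the 4 other scalings), and their part in the Rab values was not tested.

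Rab6a (chromosome 7, 100194957 to 100290475) was at 205 and 205 FPKM in control and 154 and 159.9 FPKM in miR-1247 libraries, with no overlap (−0.38 ± 0.0503, adjusted p = 0.0115). Its entry has the same coordinates as one for Mrpl48, a neighbouring gene. Rab6b (chromosome 9, 102981836 to 103062486) was at 326 and 322 against 270.5 and 257 FPKM (−0.30 ± 0.0428, adjusted p = 0.0148). The paralogs thus moved by similar amounts. Rab3c was at 67.0 and 68.4 against 54.6 and 54.8 FPKM (−0.30 ± 0.0637, adjusted p = 0.0368). Rab2a, which acts between ER and Golgi and in the making of presynaptic cargo vesicles, was at 174 and 173 against 149.9 and 148 FPKM (−0.22 ± 0.0486, adjusted p = 0.0405). Rab18 was at 62.0 and 59.6 FPKM in control and 82.1 and 75.2 FPKM in miR-1247 libraries (0.36 ± 0.0707, adjusted p = 0.0302). Rab28 narrowly missed the threshold (49.9 ± 1.12 and 69.8 ± 7.76 FPKM, 0.47 ± 0.117, adjusted p = 0.0536) and passed under 4 alternatives, 3 of them scalings. Rab3a, at 604 ± 4.97 and 570.0 ± 10.3 FPKM, did not pass (adjusted p = 0.187).

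The 8 Rab genes with a seed match did not move one way. Rab2a, with a match to bases 2 to 8, was the only one of them that was called. Rab8b, with the same kind of match, was at 8.30 and 7.10 FPKM in control and 5.78 and 5.88 FPKM in miR-1247 libraries (−0.35 ± 0.135, adjusted p = 0.154). Rab3d, the Rab gene with the longest match, was at 0.295 and 1.11 against 1.18 and 1.30 FPKM (0.44 ± 0.263, adjusted p = 0.323). Rab21 (−0.18), Rab22a (−0.23) and Rab10 (−0.01) had negative values and Rab30 (0.23) and Rab33b (0.41) positive ones, none called. The Rab33b value is that of a sum over loci that moved in opposite directions. One was at 3.73 and 3.17 FPKM in control and 1.82 and 2.72 FPKM in miR-1247 libraries. The other was at 5.44 and 7.54 against 11.3 and 11.2 FPKM. Of the 5 called Rab genes Rab6a, Rab6b, Rab3c and Rab18 had no match in the 3′ UTR searched.

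**Figure D4:**
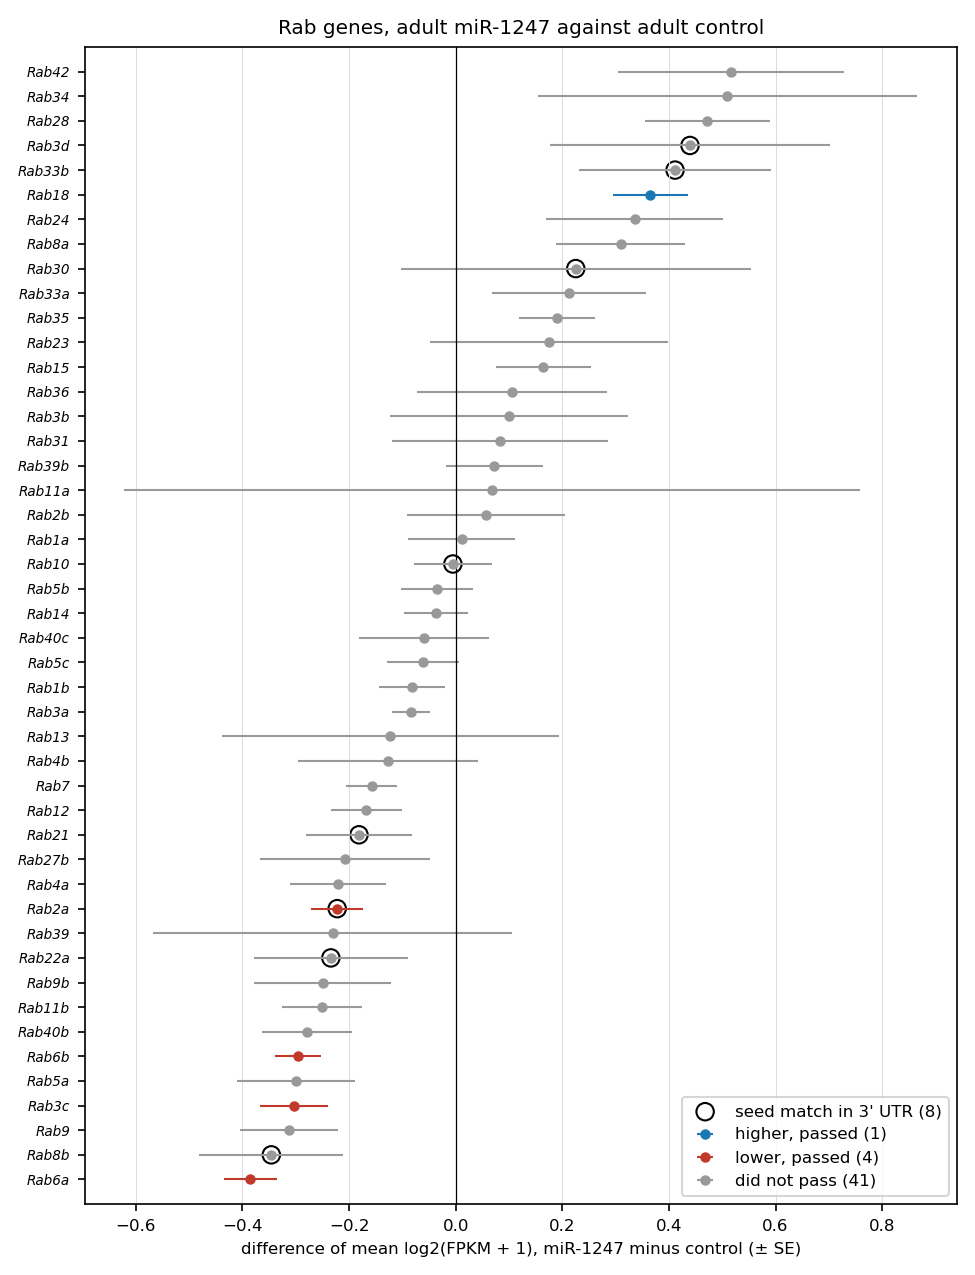
Difference of mean log2(FPKM + 1) between adult miR-1247 and adult control for each of the 46 Rab genes, with its standard error. Called genes are coloured (4 lower, 1 higher), and open circles mark the 8 genes with a match to the miR-1247-5p seed, which lie on both sides of 0.

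The comparison of E18 with adult miR-1247 RGCs shares its E18 libraries with the first comparison, so its values are given beside those and not as a repeat. Of 46 Rab genes 15 were higher and 17 lower in E18, in all 69.6%, where 69.9% of all genes were called (41.5% higher and 28.4% lower). At least 2-fold changes were called for 8 Rab genes and for 35.2% of all genes. Rab28 (−2.68), Rab3a (−1.23), Rab5b (−1.03), Rab42 (−0.98), Rab21 (−0.86) and Rab33b (−0.83) were the lowest. Rab31 (2.94), Rab3d (2.28), Rab3b (2.25), Rab11a (2.23), Rab10 (1.17) and Rab33a (0.88) were the highest. Rab42 was at 3.33 and 3.70 FPKM in miR-1247 and 1.29 and 1.28 FPKM in E18 libraries (adjusted p = 0.00554), with 1.73 and 2.65 FPKM in control, against which E18 did not pass (adjusted p = 0.0899). Rab33b passed here (adjusted p = 0.00544) and against control it did not (adjusted p = 0.0729). Rab2a, Rab6a, Rab8a, Rab9b, Rab11b, Rab35 and Rab40b likewise passed here alone, and Rab5a, Rab6b and Rab34 against control alone. The miR-1247 libraries differed from control by the test in Rab2a, Rab6a and Rab6b, and not in the other 9 of these 12 genes. Rab11a kept the spread described above, and its log2 fold change was 0.98 without E18 library 2 and 3.47 without E18 library 1. The call was lost without miR-1247 library 1 or 2 (adjusted p = 0.0905 and 0.0979). Of the genes called with the mimic, Rab18 and Rab3c had group means in miR-1247 (78.6 and 54.7 FPKM) that lay between control (60.8 and 67.7 FPKM) and E18 (98.0 and 35.8 FPKM). For Rab6a, Rab6b and Rab2a the miR-1247 mean (157, 264 and 149 FPKM) lay below those of both control (205, 324 and 174 FPKM) and E18 (221, 282 and 186 FPKM).

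The proteins that switch and use Rabs were read from the same test, and their counts in E18 against control stand beside 40.2% of all genes higher and 29.8% lower, with a median of 0.16. With median ratio scaling 3400 of 9980 genes were higher and 3427 lower. Of 42 tested exchange factors 14 rose and 15 fell in E18 against control (median 0.07, which turned to −0.08 with median ratio scaling, 9 up and 17 down). Rab3gap1, the catalytic subunit of the Rab3 GTPase-activating complex, which also serves as exchange factor for Rab18, fell from 34.4 ± 2.32 to 7.69 ± 1.82 FPKM (−2.04 ± 0.152). Dennd4a (−1.36) and Dennd5b (−1.32) of the DENN family followed. The highest were Hps1 (2.27 ± 0.266), a subunit of the exchange factor for Rab32 and Rab38, the Dennd6b entry (2.26), whose locus also carries the name Plxnb2, and Trappc4 of the TRAPP complex (1.58). The list of GTPase-activating proteins leaves out Rab3gap1, which is counted above with the exchange factors. Of its 33 tested genes 11 rose and 3 fell (median 0.18), or 8 and 7 with median ratio scaling. These counts are 33.3% and 9.09% of the list, and its median is near that of all genes. Tbc1d16 rose from 9.60 ± 0.788 to 66.2 ± 1.61 FPKM (2.67 ± 0.107), ahead of Tbc1d25 (1.17) and Sgsm2 (1.13), and Tbc1d9b (−0.99), Tbc1d1 (−0.79) and Evi5 (−0.36) fell.

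Of 9 genes of Rab prenylation, GDI and the membrane cycle 3 rose and 4 fell in E18 (median −0.25). Rabggta, a subunit of the transferase that attaches lipid to Rabs (0.89), the Chml/Opn3 locus, which holds an escort protein gene (0.40), and Gdi2 (0.38) rose. Ppm1h, a phosphatase that acts on phosphorylated Rabs (−1.21), Rabac1, a Rab acceptor (−0.64), and the escort protein gene Chm (−0.53) were the lowest. Of 52 effectors 18 rose and 19 fell (median 0.13, and −0.02 with median ratio scaling). Sytl3, a Rab27 effector, rose from 0.383 ± 0.000492 to 9.99 ± 2.31 FPKM (2.97 ± 0.326), Mical1 by 2.54 and Erc1, a Rab6 effector at sites of exocytosis, by 1.71 on the log2 scale. Mical2, an actin-oxidising enzyme, fell from 10.5 ± 0.0196 to 0.431 ± 0.0996 FPKM (−3.01 ± 0.184). Rims2, a Rab3 effector of the active zone, fell from 36.1 ± 0.0190 to 14.9 ± 0.0132 FPKM (−1.22 ± 0.0771). Rims4, also counted in the list, fell by 1.62 on the log2 scale, and whether it binds a Rab was not tested.

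With the mimic, 3.53% of all genes were higher and 6.22% lower. Of the exchange factors 1 rose (Dennd2a, from 1.84 ± 0.550 to 4.68 ± 0.991 FPKM) and 2 fell (Trappc11, −0.58, and Dennd4b, −0.56). Of the GTPase-activating proteins limma called 0 (2 higher and 7 lower at an unadjusted p under 0.05), and it called 2 lower with equal totals. Ggps1, which makes the lipid attached to Rabs, fell from 26.2 ± 0.793 to 17.3 ± 2.16 FPKM (−0.58 ± 0.109, adjusted p = 0.0279). Of 52 effectors 5 fell and limma called 0 higher (2 at an unadjusted p under 0.05). The 5 are 9.62% of the list, near the share of all genes called either way (9.75%). They were Micall2 (−0.91), the Rab11 effectors Rab11fip4 (−0.63) and Rab11fip3 (−0.42), Exoc6b of the exocyst (−0.42) and the motor Myo5a (−0.34). Rab11fip4 fell from 58.3 ± 0.859 to 37.3 ± 1.38 FPKM (adjusted p = 0.00584). In E18 against miR-1247 RGCs 41.5% of all genes were higher and 28.4% lower. Of 42 exchange factors 13 rose and 13 fell (31.0% each), and of 33 GTPase-activating proteins 12 rose and 4 fell (36.4% and 12.1%). Of 9 genes of the membrane cycle 3 rose and 3 fell (33.3% each), and of 52 effectors 19 rose and 13 fell (36.5% and 25%). With median ratio scaling 3422 of 9980 genes were higher and 3426 lower. The exchange factors were then 11 up and 16 down and the GTPase-activating proteins 11 up and 7 down. The membrane cycle genes were 2 up and 4 down and the effectors 15 up and 18 down.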

How the data were processed

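Poly-A RNA of 6 RGC libraries was sequenced. Reads were mapped to mm39 with HISAT2 and FPKM were computed with Cufflinks and Cuffdiff by the authors, per the labels' protocols and the submitters' processing notes. Versions, annotation and the filter behind the 11104 entries are not given in the sources used here. In the deposited FPKM 1e-05 had been added to each value and was taken off. The authors' deposited log2 ratios were used only as a check and were within 0.003 of recomputed ones for all 11104 entries.

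Loci of one gene name were summed, and names with the same loci were taken once (10162 rows). The 9987 with a mean of at least 1 FPKM were fitted as log2(FPKM + 1) with 3 group means over all 6 libraries in limma 3.58.1 (R 4.3.3), with a variance trend. P-values are two-sided, adjusted over all genes tested (Benjamini-Hochberg) and called at 0.05. Fold changes on this scale understate changes of weakly expressed genes, and folds without a log are ratios of mean FPKM. The code of the fit was checked on simulated data with far fewer changed genes than were called in E18 against control. That check does not measure the error rate of the calls given here. An exact 0 may be a failed estimate. Of the 46 Rab genes 10 share coordinates with another gene's entry, and the named kit does not mark strand.

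Full values are given for the 6 highest and 6 lowest called Rab genes of each comparison, the 5 most abundant, and those with several loci; in the other lists the 3 highest and 3 lowest called are named. The members, lists and tests were chosen with earlier results of these data known. Alternatives covered the pseudocount, the level filter, scaling, separate loci, the variance trend, the libraries in the fit and a replicate block. Seed matches were searched in GENCODE vM39, and each window was read back from GRCm39. Python 3.11.15, pandas 2.3.3, NumPy 2.4.6 and Matplotlib 3.10.9 were used.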

Additional observations from a re-analysis of the deposited data

How the results depend on the processing

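Over 17 alternatives the count of called Rab genes in E18 against control ran from 22 to 29 (26 as reported), and 19 of the 26 genes were called under every alternative in which they were tested. The count of higher genes was 7 with median ratio scaling and 7 to 10 without single libraries. No called Rab gene changed sign in any comparison. In E18 against miR-1247, 22 of 32 calls held throughout. The calls with the mimic depended on most settings. Called Rab genes numbered 3 with equal totals (0 higher), 2 with the 4 adult libraries alone (0 higher, 2 lower), 0 with no variance trend (0 higher, 0 lower) and 0 to 1 without single libraries (0 higher, 0 to 1 lower). Higher genes numbered 2 with a filter of 5 FPKM, median ratio scaling, quantile normalization and equal totals without mitochondrial genes, the last with 2 lower. All genes called numbered 343 with no trend, 347 with 4 libraries, and 121 to 242 without single libraries, against 974. Same-numbered libraries did not deviate together over all genes tested (correlations −0.00812, −0.00175 and 0.00353). These correlations cannot show whether such libraries were handled together. With the replicate block 3 Rab genes were called with the mimic (2 lower) and 584 of all genes, and 25 Rab genes in E18 against control. The cause of these shifts was not tested. Of all calls with the mimic 36.2% were higher as deposited, 46.6% with median ratio scaling and 15.1% with equal totals, where the median of all genes was −0.12. Without read counts no counting error can be given.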
